A study of Mus musculus with 10 samples.

Results

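The genes described here are 30 targets of the tumour suppressor p53 and effectors of cell death, read in whole liver of mice with and without hepatocyte Lpcat3. They were listed by symbol and matched to the NCBI Gene numbers of the deposited count table, where all 30 were found among 27179 genes. The list holds 16 genes commonly counted as p53 targets, 9 members of the BCL2 family (3 of them also p53 targets), 2 caspases, 3 genes of necroptosis, the pyroptosis pore gene Gsdmd, the stress gene Gadd45b and the inhibitor of apoptosis gene Birc3. Bulk RNA sequencing was done on liver of male C57BL/6 mice that all carried floxed Lpcat3 alleles (Lpcat3f/f) and had all eaten a diet that causes nonalcoholic steatohepatitis for 12 weeks. The control group carried no Cre, and the LKO group carried Albumin-Cre, in which the albumin promoter drives Cre recombinase in hepatocytes. Each group had 5 libraries. The labels used here give no age and no group on a normal diet. Other liver cells keep Lpcat3 in this model, and in whole tissue fewer cells of a type cannot be told apart from less RNA per cell.

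p53 is a transcription factor that is stabilised when DNA is damaged or the cell is stressed. It switches on genes that halt the cell cycle, repair DNA or start apoptosis, and it also induces Mdm2, whose product returns p53 to the proteasome. In apoptosis the BH3-only proteins of the BCL2 family free BAX and BAK to open the mitochondrial outer membrane, while BCL2, BCL-XL and MCL1 hold them back. Death receptors reach the same end through caspase-8. When caspase-8 is blocked, RIPK1 and RIPK3 can activate MLKL, which ruptures the plasma membrane in necroptosis, and inflammatory caspases cut gasdermin D to do so in pyroptosis. Hepatocyte death of several kinds accompanies steatohepatitis.

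The libraries held 26914124 to 46727182 counts. Lpcat3 was lower in every LKO library (at most 38.5 CPM, a count scaled to a common library size) than in any control library (at least 94.1 CPM), and its log2 fold change was -1.79 (SE 0.12; adjusted p = 0.000151 by edgeR's quasi-likelihood F test with Benjamini-Hochberg adjustment, as for all adjusted p-values below unless another tool is named). Control 4 stood apart from the other controls on the first principal component, at 30.2 against -52.7 to -30.1, inside the LKO range of -8.03 to 82.3, whose upper end was LKO 3. The sample titles also hold a bracketed code whose meaning the labels leave out. Code A54 marks 1 control and 2 LKO libraries, A55 the other 4 controls and A67 the other 3 LKO libraries. Only A54 holds both groups, so a fit with the code as a covariate takes its group difference from those 3 libraries and its spread from all codes. Per the design text the 5 libraries of a group came from 5 mice.

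All 30 genes passed the filter on low counts, and none of them differed at an adjusted p under 0.05 (edgeR), where 0.0657% of the 15226 genes tested did. At an unadjusted p under 0.05, 10 of the 30 were higher in LKO and 0 were lower, where 12.8% of all genes were higher and 9.5% lower. The 30 genes were listed with earlier results of these data known, so their shares beside those of all genes are description only. DESeq2 gave 10 higher and 0 lower at an unadjusted p under 0.05, where 14% of all genes were higher and 10.7% lower. It called 6 of the 10 after adjustment (Sesn1, Btg2, Pmaip1, Gadd45b, Casp1 and Mlkl), where it called 7.18% of all genes (4.06% higher and 3.12% lower). Limma voom called 7, all higher (Cdkn1a, Phlda3, Sesn1, Pmaip1, Gadd45b, Casp1 and Mlkl), where it called 10% of all genes higher and 6.11% lower. Without control 4, edgeR called 10 of the 30, all higher: those 7 with Btg2, Tnfrsf10b and Bcl2l11. That fit, which leaves out the control nearest to the LKO libraries, called 10.2% of all genes higher and 4.75% lower. With LKO 3 left out as well, 9 of the 30 were called, all higher and Btg2 no longer among them, where 9.87% of all genes were called higher and 5.73% lower. With the code from the titles added to the edgeR fit, 0 of the 30 were called, and at an unadjusted p under 0.05 Mlkl was higher (log2 fold change 0.94) and Gsdmd lower (-0.43), where 3.09% of all genes were higher and 1.9% lower.

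The log2 fold change was above 0 for 25 of the 30 genes and below 0 for 5 (Gadd45a, Bid, Bcl2l1, Casp8 and Gsdmd), but with libraries scaled to total counts, which moved the median of all genes to 0.24, it was above 0 for all 30. The median over the 30 was 0.25, beside -0.00 over all genes tested, of which 49.5% were above 0. By role, the median was 0.32 for the 16 p53 targets (15 above 0), 0.37 for the 6 proapoptotic BCL2 family genes (5 above 0), 0.04 for the 3 antiapoptotic ones and 0.19 for the 6 genes of caspases, necroptosis and pyroptosis (4 above 0). Among p53 targets, the 5 grouped here as starting apoptosis (Bax, Bbc3, Pmaip1, Fas and Tnfrsf10b) had a median of 0.72. The other 11, grouped under arrest, repair and feedback, had a median of 0.11. These 11 ran from -0.16 to 1.25 and include genes whose products can also promote apoptosis, such as Aen (0.05) and Trp53inp1 (0.11). The 2 medians therefore depend on the grouping, and which way another grouping would move them was not tested. The values within the p53 targets were spread: Cdkn1a, Phlda3, Pmaip1 and Tnfrsf10b stood above 1, while Mdm2, Zmat3, Aen and Ccng1 stood between 0.01 and 0.08.

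**Figure D1:**
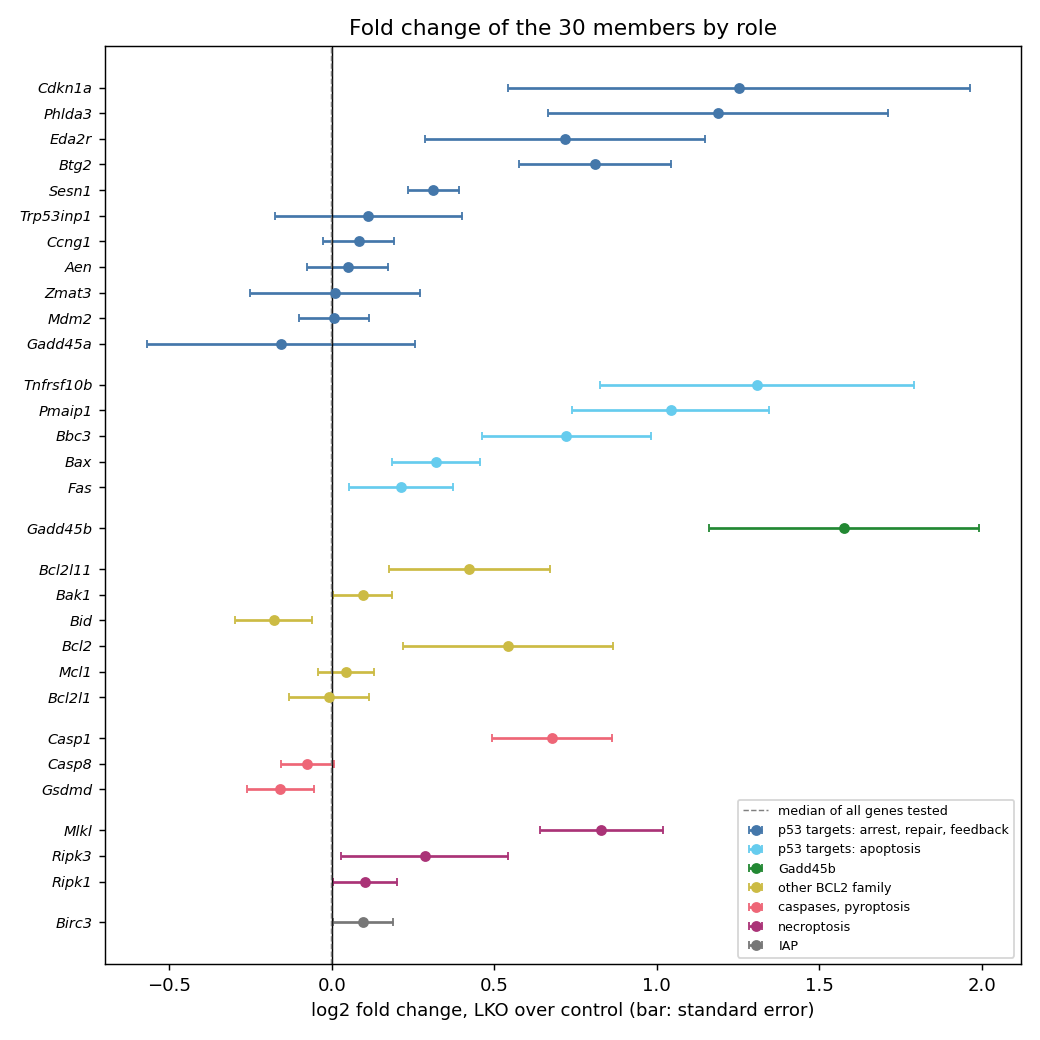
Log2 fold change, LKO over control (x axis), of the 30 genes (y axis) by role, with bars for the standard error and a dashed line at the median of all genes tested. Gadd45b (1.58), Tnfrsf10b (1.31) and Cdkn1a (1.25) lie farthest right with wide bars, Sesn1 (0.31) has the narrowest bar, and the 5 genes left of 0 are right of it when libraries are scaled to total counts.

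Levels of different genes were compared per kilobase of exon. Mcl1, whose short-lived product guards hepatocytes against apoptosis, was the most abundant, at 44.2 CPM per kilobase in control and 45.6 in LKO. The cyclin G gene Ccng1 (19.6 and 20.8), Trp53inp1 (19.4 and 21.0) and Mdm2 (13.7 and 13.8) followed. The executioners BAX and BAK were encoded at similar levels, Bax at 10.7 and 13.4 and Bak1 at 11.4 and 12.2 CPM per kilobase. Among the antiapoptotic genes, Bcl2 itself was scarce, at 0.472 and 0.689, against 7.81 and 7.76 for Bcl2l1. Ripk3 was also scarce, at 0.566 and 0.692, while Ripk1 stood at 7.89 and 8.47 and Casp8 at 11.7 and 11.1. Tnfrsf10b was the least abundant of the 30 in both groups (0.238 and 0.591), with raw counts of 9 to 137 per library. Of the 30 genes ordered by control level per kilobase, the 5 with a log2 fold change above 1 (Cdkn1a, Phlda3, Gadd45b, Pmaip1 and Tnfrsf10b) all held places between 20 and 30.

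**Figure D2:**
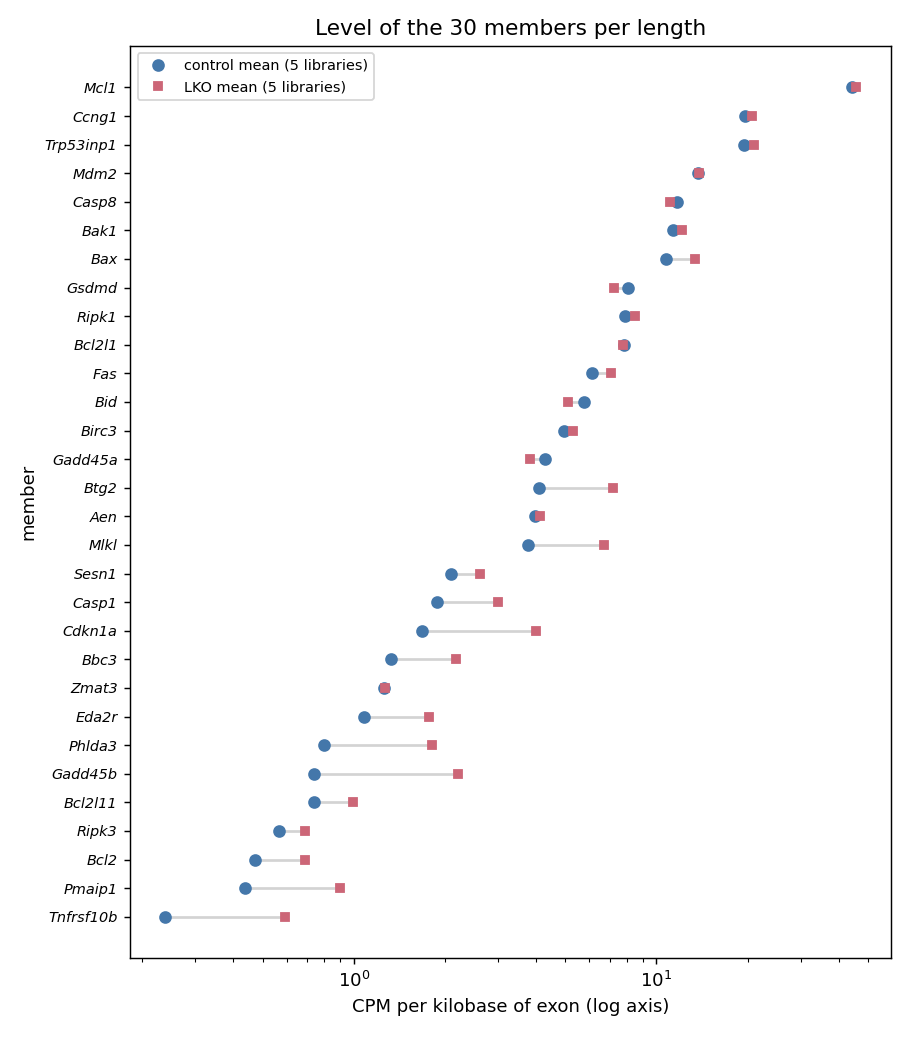
Mean level of each of the 30 genes in control (circles) and LKO (squares) as CPM per kilobase of exon on a log axis, with n = 5 libraries a group, ordered by the control level. Mcl1 (44.2 in control) is at the top and Tnfrsf10b (0.238) at the bottom, and the wide gaps between symbols are in the lower part of the plot.

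Cdkn1a encodes p21, the cyclin-dependent kinase inhibitor through which p53 halts the cell cycle. It read 1.40, 2.42, 2.80, 14.8 and 1.47 CPM in controls 1 to 5 and 4.65, 4.70, 23.1, 6.47 and 15.6 CPM in LKO 1 to 5. Every LKO library was above 4 of the controls, but control 4 exceeded 3 LKO libraries, so the groups overlapped. In the fit over all genes the log2 fold change was 1.25 (SE 0.71; edgeR adjusted p = 0.309), and 2.43 (adjusted p = 0.0171) without control 4, in a range of adjusted p from 0.0125 to 0.88 over the alternatives. Within A54 the control had 1.40 CPM and the 2 LKO libraries averaged 4.67 CPM. The values of Cdkn1a, Phlda3, Eda2r, Mdm2 and Bcl2l11 are given in full although the rule for such genes did not pick them; they were chosen after their values were seen.

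Phlda3, whose product restrains AKT signalling, had the same highest library in each group. It read 0.831, 0.667, 0.945, 2.90 and 0.396 CPM in the controls and 1.88, 1.39, 5.05, 1.91 and 2.81 CPM in LKO 1 to 5. Control 4 again lay above most LKO libraries and LKO 3 was the highest. Its log2 fold change was 1.19 (SE 0.52; edgeR adjusted p = 0.213), and 1.89 without control 4 (adjusted p = 0.0173; range over the alternatives 0.0111 to 0.907). The ectodysplasin receptor gene Eda2r read 2.94, 3.44, 6.55, 10.5 and 2.37 CPM in the controls and 6.41, 4.70, 13.9, 6.19 and 11.3 CPM in LKO. Here control 3 also reached the LKO range. The log2 fold change was 0.72 (SE 0.43; edgeR adjusted p = 0.334).

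Mdm2, the feedback inhibitor of p53, showed no such spread. It read 40.9, 38.4, 50.04, 50.2 and 36.0 CPM in the controls and 45.9, 39.1, 47.02, 41.4 and 43.2 CPM in LKO 1 to 5. Control 4 and LKO 3 were again the highest of their groups, by small margins. The LKO values all lay inside the control range, and the log2 fold change was 0.01 (SE 0.11; edgeR adjusted p = 0.976). Ccng1 (68.8 ± 8.83 and 72.9 ± 7.81 CPM; SD, n = 5), the exonuclease gene Aen (20.5 ± 2.74 and 21.2 ± 3.19 CPM) and the RNA-binding zinc finger gene Zmat3 (9.83 ± 4.42 and 9.90 ± 2.197 CPM) differed by less than their SDs. Over the 10 libraries the highest value was 16.5 times the lowest for Cdkn1a, 12.8 times for Phlda3, 10.8 times for Tnfrsf10b and 5.86 times for Eda2r. That ratio was 1.39 for Mdm2, 1.38 for Ccng1 and 1.57 for Aen. It exceeded 5 in 6 of the 30 genes and in 11.8% of all genes tested, and stayed under 1.6 in 12 of the 30 and in 37.9% of all genes.

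The start-site windows of 4 p53 targets are shown because their transcripts behaved unlike each other: Cdkn1a ranged widely, Sesn1 had tight groups that did not overlap, and Mdm2 and Ccng1 were level. Each runs 5′ to 3′ on the gene's strand from 250 bases before to 50 bases after a RefSeq start, in build GRCm38.p6, with every match to the p53 half-site motif (both strands) in capitals.
Cdkn1a upstream start, chr17:29090729-29091028, plus strand: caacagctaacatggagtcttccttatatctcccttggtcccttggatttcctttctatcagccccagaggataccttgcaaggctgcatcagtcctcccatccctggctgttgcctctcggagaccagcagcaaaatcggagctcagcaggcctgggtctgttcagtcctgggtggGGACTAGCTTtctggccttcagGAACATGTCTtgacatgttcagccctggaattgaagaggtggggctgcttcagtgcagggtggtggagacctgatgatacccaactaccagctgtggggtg
Sesn1, chr10:41887189-41887488, plus strand: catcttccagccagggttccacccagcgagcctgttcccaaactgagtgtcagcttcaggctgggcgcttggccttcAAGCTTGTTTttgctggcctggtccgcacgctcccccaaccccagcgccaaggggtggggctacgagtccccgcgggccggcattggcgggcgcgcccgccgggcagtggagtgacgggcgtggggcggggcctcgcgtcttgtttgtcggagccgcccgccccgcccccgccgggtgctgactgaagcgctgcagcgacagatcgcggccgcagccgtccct
Mdm2, chr10:117710709-117711008, minus strand: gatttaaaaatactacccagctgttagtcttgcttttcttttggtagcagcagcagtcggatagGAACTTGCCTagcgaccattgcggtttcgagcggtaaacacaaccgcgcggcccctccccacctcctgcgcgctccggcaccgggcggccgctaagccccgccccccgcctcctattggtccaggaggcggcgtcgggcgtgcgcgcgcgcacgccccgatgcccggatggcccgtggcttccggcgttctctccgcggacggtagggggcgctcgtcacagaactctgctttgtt
Ccng1, chr11:40755237-40755536, minus strand: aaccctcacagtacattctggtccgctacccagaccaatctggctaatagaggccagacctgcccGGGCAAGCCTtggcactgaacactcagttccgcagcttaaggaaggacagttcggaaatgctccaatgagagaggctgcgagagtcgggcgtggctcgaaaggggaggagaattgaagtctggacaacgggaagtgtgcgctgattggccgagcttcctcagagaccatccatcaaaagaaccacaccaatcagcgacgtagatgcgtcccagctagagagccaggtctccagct
Cdkn1a and Sesn1 each have another window in the table, and neither of those held a match. The other Cdkn1a window lies downstream of the one shown, at chr17:29093519-29093818. The Cdkn1a window shown holds 2 exact half-sites, which begin 73 and 51 bases before its upstream start and leave 12 bases between them. The bases directly after the later one, tgacatgttc, depart from the motif only in their first letter. The search for exact matches therefore left them in lower case. The Sesn1, Mdm2 and Ccng1 windows shown hold 1 each, beginning 173, 186 and 185 bases before the start. RefSeq windows were found for 25 of the 30 genes (34 windows), and not for Gsdmd, Pmaip1, Tnfrsf10b, Trp53inp1 and Zmat3. Besides these 4 genes, Aen, Bax and Gadd45a held a half-site, so 7 of 25 genes, and 8 of their 34 windows, did. Both windows of Aen overlap and hold the same site, which is counted in each. The share that follows is by window and not by gene. Of all 32851 windows of the same length, 8.36% held a half-site and 0.0731% held 2 within a spacer of at most 13 bases, as the Cdkn1a window does. A match describes the letters only.

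Sesn1, whose sestrin product restrains mTORC1 under stress, had the smallest p of the p53 targets among the 30 genes. Tigar, a further target described below, had a smaller p and was lower in LKO. Sesn1 was higher. Sesn1 read 8.68, 7.69, 8.40, 8.61 and 8.26 CPM in controls 1 to 5 and 9.45, 10.4, 10.6, 10.7 and 10.6 CPM in LKO 1 to 5. Every LKO library was above every control, control 4 included, and both groups were tight. Its log2 fold change was 0.31 (SE 0.08; edgeR adjusted p = 0.0999), a 1.24-fold difference that did not pass, and it was 0.32 without control 4 (adjusted p = 0.0303; range over the alternatives 0.018 to 0.88). Within A54 it was 8.68 CPM in the control and 9.90 CPM on average in LKO.

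Btg2, an antiproliferative gene, read 13.7, 12.3, 9.52, 12.7 and 8.005 CPM in the controls and 14.9, 12.2, 30.2, 20.8 and 20.3 CPM in LKO 1 to 5. The 3 A67 libraries and, narrowly, LKO 1 were above all controls, and LKO 2 was among them. The A54 control had 13.7 CPM and the 2 A54 LKO libraries averaged 13.5 CPM. In the fit over all genes the log2 fold change was 0.81 (SE 0.24; edgeR adjusted p = 0.122), 0.86 without control 4 (adjusted p = 0.047; range over the alternatives 0.0271 to 0.991) and -0.02 with the title code as a covariate. Trp53inp1, a stress-induced partner of p53, averaged 105 ± 23.6 CPM in control against 113 ± 51.9 CPM in LKO, with 194 CPM in LKO 3 alone above all controls and 56.3 CPM in LKO 2 below them. Gadd45a, a DNA damage gene that binds PCNA, had 5.23 ± 3.18 and 4.67 ± 1.41 CPM. Its direction turned with scaling to total counts (log2 fold change -0.16, against 0.12), and it overlaps the noncoding gene E230016M11Rik, so with no strand setting given for the counting its reads may be shared. Zmat3 likewise overlaps 4930429B21Rik.

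Gadd45b, of the same family but driven mostly by NF-κB and TGF-beta signalling rather than p53, had the largest fold change of the 30. It read 0.642, 0.843, 0.641, 2.19 and 0.768 CPM in controls 1 to 5 and 1.88, 1.83, 5.38, 3.18 and 2.93 CPM in LKO 1 to 5. Without control 4 the groups did not overlap, and with it they did, since control 4 exceeded LKO 1 and LKO 2. The log2 fold change was 1.58 (SE 0.41; edgeR adjusted p = 0.106), and 2.06 without control 4 (adjusted p = 0.00803; range over the alternatives 0.00319 to 0.878). Within A54 the control had 0.642 CPM and the LKO libraries averaged 1.86 CPM.

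**Figure D3:**
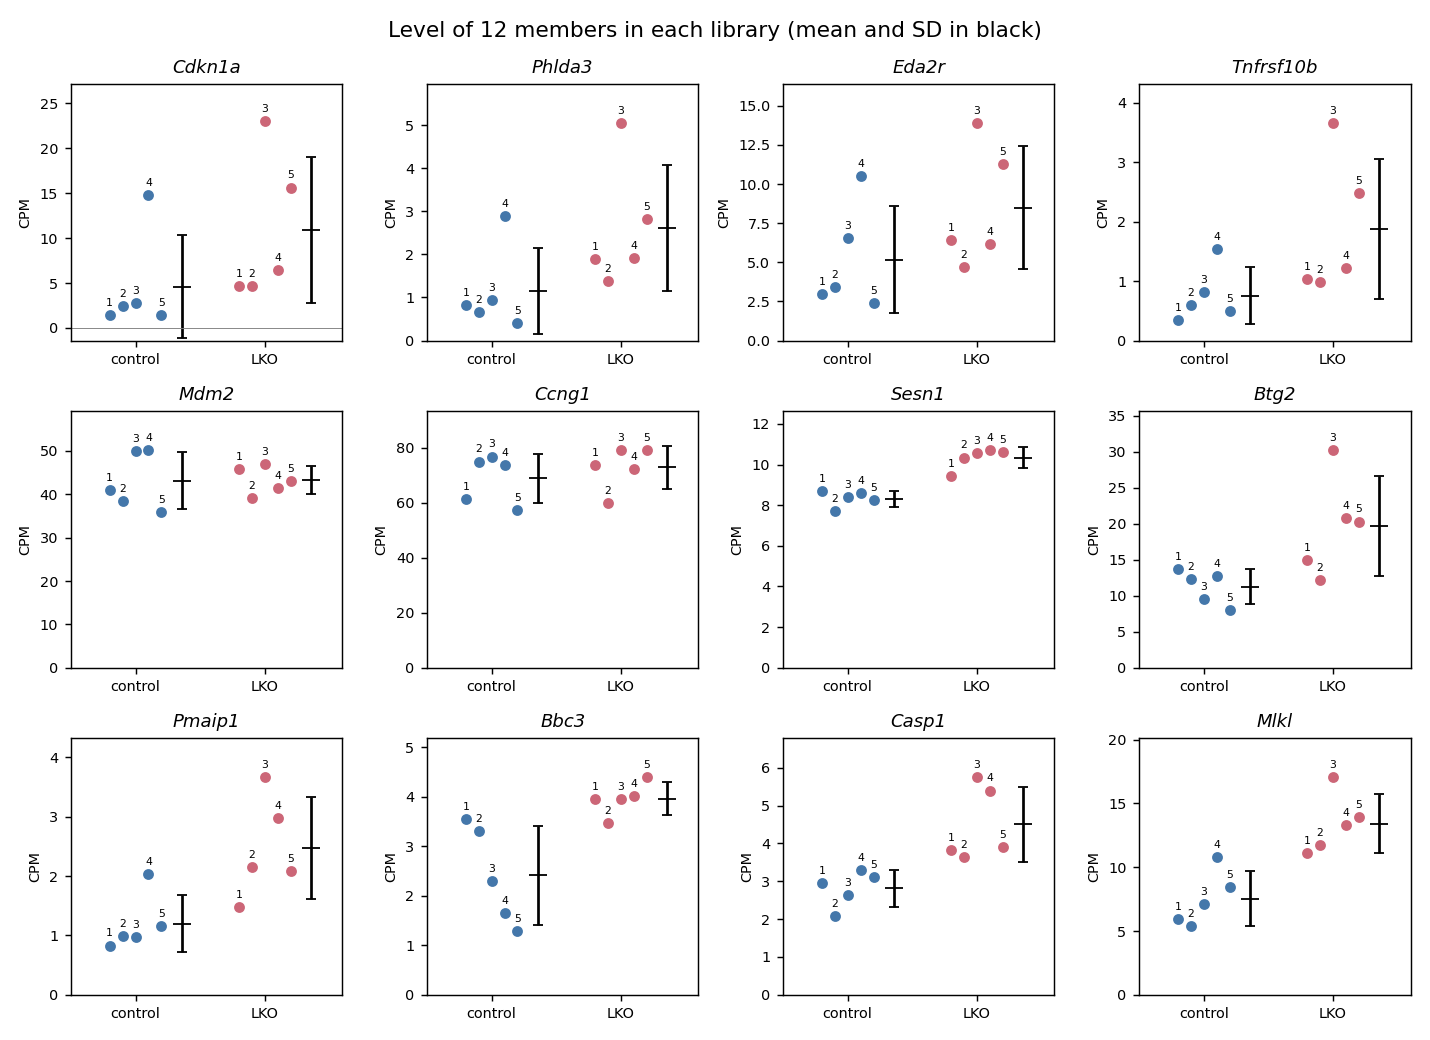
CPM (y axis) of 12 of the genes in each of the 5 control and 5 LKO libraries, numbered by replicate, with the mean and SD in black. LKO 3 and control 4 are the highest of their groups for Cdkn1a, Phlda3, Eda2r, Tnfrsf10b, Pmaip1, Casp1, Mlkl and, by small margins, Mdm2. Mdm2 and Ccng1 are level between the groups, and only Sesn1, Casp1 and Mlkl have groups that do not overlap.

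The p53 targets grouped here as starting apoptosis were all above 0 in log2 fold change, where 49.5% of all genes tested were. Of these 5, 4 had an unadjusted p under 0.05, where 12.8% of all genes were higher at that limit. These counts are description only. Pmaip1, which encodes the BH3-only protein NOXA, read 0.831, 0.983, 0.979, 2.03 and 1.16 CPM in the controls and 1.48, 2.16, 3.66, 2.98 and 2.08 CPM in LKO 1 to 5. Control 4 was the only control above the lowest LKO library. Its log2 fold change was 1.04 (SE 0.30; edgeR adjusted p = 0.122), and 1.31 without control 4 (adjusted p = 0.0148; range over the alternatives 0.0138 to 0.878). Bbc3, which encodes the BH3-only protein PUMA, followed another order. It read 3.55, 3.30, 2.29, 1.64 and 1.28 CPM in the controls and 3.96, 3.47, 3.96, 4.02 and 4.39 CPM in LKO. Control 4 was among the low controls here and LKO 3 was not the highest, while control 1 alone exceeded an LKO library (LKO 2). Its log2 fold change was 0.72 (SE 0.26; edgeR adjusted p = 0.156), and within A54 the values were 3.55 CPM in the control and 3.71 CPM on average in LKO.

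Bax, the pore-forming executioner, averaged 9.31 ± 0.939 CPM in control against 11.6 ± 2.19 CPM in LKO (log2 fold change 0.32), with the 3 A67 libraries at 14.2, 12.2 and 12.97 CPM above all controls. Tnfrsf10b, the mouse receptor for the death ligand TRAIL, read 0.340, 0.597, 0.810, 1.55 and 0.489 CPM in controls 1 to 5 and 1.04, 0.983, 3.66, 1.22 and 2.49 CPM in LKO 1 to 5. All LKO libraries exceeded 4 of the controls, and control 4 exceeded 3 of them. In the fit over all genes the log2 fold change was 1.31 (SE 0.48; edgeR adjusted p = 0.161), and 1.74 without control 4 (adjusted p = 0.0329; range over the alternatives 0.0329 to 0.878). Fas, the receptor of Fas ligand and abundant on hepatocytes, read 10.4, 12.3, 12.7, 8.99 and 10.5 CPM in the controls and 12.2, 9.59, 11.8, 17.8 and 12.0 CPM in LKO. LKO 4 alone stood above the controls, and the log2 fold change was 0.21 (SE 0.16; edgeR adjusted p = 0.44). Fas therefore did not share the library order of Tnfrsf10b.

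Of the other BCL2 family genes, Bcl2l11, which encodes the BH3-only protein BIM, read 3.62, 4.57, 4.59, 8.54 and 4.19 CPM in controls 1 to 5 and 6.56, 8.60, 7.54, 4.28 and 7.23 CPM in LKO 1 to 5. Control 4 and LKO 4 each stood with the opposite group. The log2 fold change was 0.42 (SE 0.25; edgeR adjusted p = 0.324), and 0.69 without control 4 (adjusted p = 0.0359; range over the alternatives 0.0359 to 0.878). The executioner gene Bak1 had 27.2 ± 1.59 and 29.0 ± 3.53 CPM. Bid, whose product carries the caspase-8 signal to mitochondria, had 12.6 ± 1.88 and 11.2 ± 1.19 CPM, a log2 fold change of -0.18 that was 0.07 with scaling to total counts.

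None of the 3 antiapoptotic genes had an unadjusted p under 0.05. Bcl2 read 2.49, 3.72, 3.37, 7.58 and 4.47 CPM in the controls and 3.89, 4.62, 10.4, 5.78 and 6.88 CPM in LKO, again with control 4 and LKO 3 highest (log2 fold change 0.54, SE 0.32; edgeR adjusted p = 0.33). Bcl2l1, which encodes BCL-XL, read 35.4, 29.5, 31.9, 31.9 and 23.1 CPM in the controls and 29.5, 27.1, 31.3, 26.6 and 36.2 CPM in LKO, and its log2 fold change of -0.01 (SE 0.12; edgeR adjusted p = 0.973) was 0.24 with scaling to total counts. Mcl1 read 171, 142, 154, 146 and 142 CPM in the controls and 147, 142, 163, 170 and 158 CPM in LKO. Its groups overlapped almost wholly (log2 fold change 0.04, SE 0.09; edgeR adjusted p = 0.788). The spans of Bak1, Bcl2l11 and Bcl2l1 overlap those of Ggnbp1, Acoxl and Cox4i2 in the annotation. Of 16 further BCL2 family genes 14 were tested, with 7 above and 7 below 0, a median of -0.03 and 0 called. Those with the smallest p were Bok (0.56), a BAX-like gene, and Bcl2a1b and Bcl2a1d (1.41 and 1.43), near-identical copies of an antiapoptotic gene of leukocytes, between which the split of reads is uncertain.

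Casp1, the inflammatory caspase that matures interleukin-1 beta and cuts gasdermin D, had groups that did not overlap. It read 2.95, 2.07, 2.63, 3.29 and 3.12 CPM in controls 1 to 5 and 3.83, 3.63, 5.75, 5.40 and 3.90 CPM in LKO 1 to 5. Its log2 fold change was 0.68 (SE 0.18; edgeR adjusted p = 0.108), a 1.6-fold difference that did not pass, and 0.74 without control 4 (adjusted p = 0.0317; range over the alternatives 0.0211 to 0.902). Within A54 the control had 2.95 CPM and the LKO libraries averaged 3.73 CPM. Its substrate gene Gsdmd read 16.01, 13.1, 14.0, 15.8 and 13.5 CPM in the controls and 10.9, 12.8, 12.7, 15.3 and 13.1 CPM in LKO. Here 3 LKO libraries lay below all controls and the log2 fold change was -0.16 (SE 0.10; edgeR adjusted p = 0.369), or 0.07 with scaling to total counts. Casp8, the initiator of death receptor signalling, read 32.2, 34.0, 35.1, 32.7 and 34.6 CPM in the controls and 32.2, 35.0, 26.4, 32.8 and 33.6 CPM in LKO. LKO 3 stood lowest, off the rest, and the log2 fold change of -0.08 (SE 0.08; edgeR adjusted p = 0.602) was 0.16 with scaling to total counts.

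Around these genes, 13 of 13 further inflammasome and pyroptosis genes were tested, with 11 above 0, a median log2 fold change of 0.32 and 0 called. Casp4, the mouse caspase-11 gene whose product senses bacterial lipopolysaccharide, averaged 2.001 ± 0.441 CPM in control against 4.42 ± 1.87 CPM in LKO, without overlap (log2 fold change 1.14; edgeR adjusted p = 0.102). The DNA sensor gene Aim2 stood at 0.68 and Pycard, the ASC adaptor gene, at 0.74 (edgeR adjusted p = 0.175 and 0.226). Of 16 other caspase and apoptosome genes 15 were tested, with 6 above and 9 below 0, a median of -0.03 and 0 called. Casp4, which is in both lists, led by p, followed by Casp12 (1.42) and the inhibitor of caspase-activated DNase, Dffa (-0.26).

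Mlkl, the executioner of necroptosis, had the smallest p of the 30 genes. It read 5.93, 5.41, 7.15, 10.8 and 8.42 CPM in controls 1 to 5 and 11.1, 11.7, 17.1, 13.3 and 13.9 CPM in LKO 1 to 5. Every LKO library was above every control, though control 4 came close to LKO 1. In the fit over all genes the log2 fold change was 0.83 (SE 0.19; edgeR adjusted p = 0.0921), a 1.78-fold difference that did not pass, and 0.99 without control 4 (adjusted p = 0.00803; range over the alternatives 0.00446 to 0.878). Within A54 the control had 5.93 CPM and the 2 LKO libraries averaged 11.4 CPM. The kinase gene Ripk3, which activates MLKL, read 1.02, 1.02, 1.01, 1.06 and 1.47 CPM in the controls and 1.45, 1.58, 1.42, 1.71 and 0.673 CPM in LKO. Control 5 and LKO 5 each ran against their group, and the log2 fold change was 0.29 (SE 0.26; edgeR adjusted p = 0.523). Ripk1, the upstream kinase, read 56.7, 50.9, 54.9, 46.9 and 59.5 CPM in the controls and 47.9, 55.5, 61.3, 66.2 and 57.9 CPM in LKO. Its groups overlapped (log2 fold change 0.10, SE 0.10; edgeR adjusted p = 0.549), and its span overlaps Serpinb6a in the annotation. Sesn1, Casp1 and Mlkl were the 3 of 30 genes without overlap, all higher in LKO, where 1.72% of all genes tested were apart and higher and 2.23% apart and lower.

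All 6 further necroptosis genes were tested, with 2 above and 4 below 0, a median of -0.08 and 0 called. Zbp1, a sensor of Z-form nucleic acids that recruits RIPK3, stood at 0.76 (edgeR adjusted p = 0.233), with 15.7 CPM in LKO 3 and 8.64 CPM in control 4, and Cyld and Fadd at -0.14 and -0.23. In death receptor signalling 12 of 14 genes were tested, with 9 above 0, a median of 0.03 and 0 called. Tnf, the ligand gene, had 0.385 ± 0.249 and 1.02 ± 0.211 CPM without overlap (log2 fold change 1.43; edgeR adjusted p = 0.122). The feedback inhibitor Tnfaip3, which encodes A20, stood at 0.89.

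Birc3, which encodes the ubiquitin ligase cIAP2 that keeps RIPK1 from killing, read 21.8, 21.7, 20.04, 23.6 and 18.1 CPM in controls 1 to 5 and 19.9, 20.9, 24.0, 22.8 and 24.8 CPM in LKO 1 to 5. The groups overlapped, with a log2 fold change of 0.10 (SE 0.09; edgeR adjusted p = 0.551). Of 8 further genes of that family all were tested, 4 above and 4 below 0, and 0 were called. Xiap, the direct caspase inhibitor, averaged 164 ± 8.74 CPM in control against 138 ± 6.20 CPM in LKO without overlap (log2 fold change -0.25; edgeR adjusted p = 0.124). Birc5, a gene of dividing cells, stood at 0.94 and Birc6 at -0.17, the latter also without overlap.

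In the wider p53 network, of 28 further targets 27 were tested, with 17 above and 10 below 0, a median of 0.16 and 0 called. Tigar, which lowers glycolytic flux, averaged 14.8 ± 1.57 CPM in control against 10.8 ± 1.07 CPM in LKO, with every LKO library below every control, and did not pass (log2 fold change -0.46, SE 0.10; edgeR adjusted p = 0.0856). Rap2b and Abhd4 stood at 0.84 and 0.38 (edgeR adjusted p = 0.11 and 0.12). Of 13 regulators of p53, 12 were tested, with 5 above and 7 below 0, a median of -0.01 and 0 called. The deacetylase gene Sirt1 had 16.9 ± 1.31 and 13.4 ± 0.944 CPM without overlap (log2 fold change -0.33; edgeR adjusted p = 0.0999), and Chek1 and Atm stood at 0.87 and -0.14. Trp53 itself, chosen after its values were seen, averaged 14.2 ± 1.93 CPM in control against 14.6 ± 0.883 CPM in LKO.

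The libraries did not stand in the same order in every group of genes. Control 4 was the highest control in 9 of the 16 p53 targets, where it was so in 31.6% of all genes tested. LKO 3 was the highest LKO library in 12 of the 16, against 32.6% of all genes. Both held at once in 9 (56.2%), against 19.4% of all genes. In the 6 genes of caspases, necroptosis and pyroptosis both held in 2, Casp1 and Mlkl. Relative to the control mean, the mean log2 level of the p53 targets was 0.53 in control 4 and between -0.43 and 0.07 in the other controls. It was 1.05 in LKO 3, 0.77 in LKO 5, 0.46 in LKO 4, 0.33 in LKO 1 and 0.15 in LKO 2. In the caspase, necroptosis and pyroptosis group control 4 stood at 0.11 and control 5 at 0.15, and LKO libraries ran from 0.11 (LKO 5) to 0.47 (LKO 4). Without control 4, 8 of the 30 genes had LKO libraries all above the other controls, where 11.1% of all genes did. Within A54 the mean of the 2 LKO libraries exceeded the control in 22 of the 30 genes and in 14 of the 16 p53 targets, where 49.6% of all genes did. All of these counts rest on 1 control library, control 1, so the genes are not separate observations. No difference between the gene groups was tested.

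**Figure D4:**
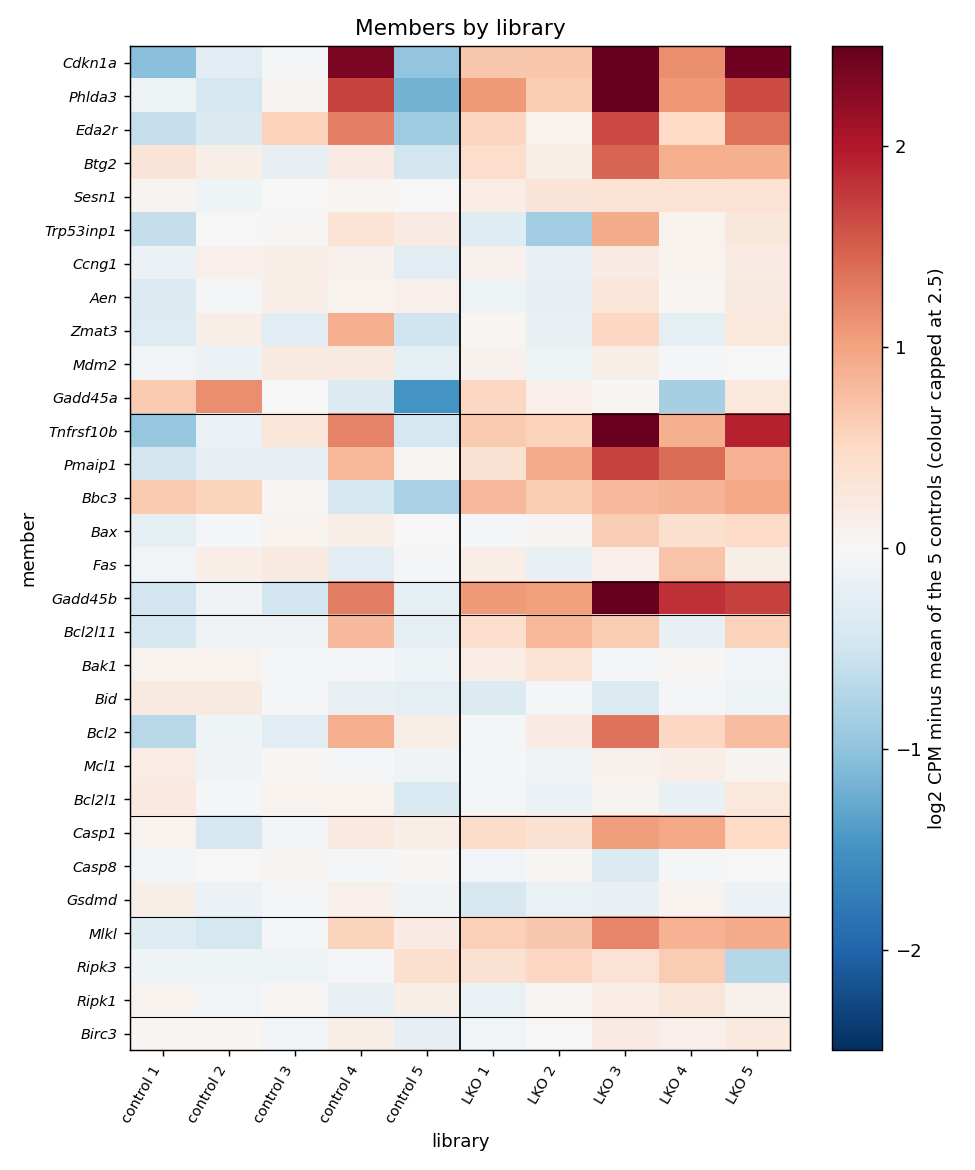
Log2 CPM of the 30 genes (rows, by role) in each library (columns) minus the mean of the 5 controls, with colour capped at 2.5. Control 4 resembles LKO 5 in the rows of Cdkn1a, Phlda3 and Eda2r, and in the row of Tnfrsf10b it lies between LKO 4 and LKO 5. LKO 3 is the highest library in each of these rows. The rows of Mdm2, Ccng1 and Mcl1 are pale throughout.

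Marker sums of some cell types were high in control 4 and LKO 3, and those of others were not. The 10 macrophage markers were all above 0 in log2 fold change, and their summed level was 131 to 162 CPM in 4 controls, 441 CPM in control 4 and 286 to 599 CPM in LKO, highest in LKO 3. The 6 cholangiocyte markers, all above 0, summed to 23.3 to 32.7 CPM in 4 controls, 158 CPM in control 4 and 28.2 to 367 CPM in LKO, with LKO 3 and LKO 5 (219 CPM) highest, as for Cdkn1a. The defining marker Cftr was at 0 in some libraries. The 6 markers of cycling cells, all above 0, summed to 7.87 to 13.4 CPM in 4 controls, 54.2 CPM in control 4 and 31.8 to 141 CPM in LKO, with Ccnb1 and Bub1 at 0 in some libraries. The 7 hepatocyte markers, all below 0, summed to 59290 to 64600 CPM in 4 controls, 40050 CPM in control 4 and 34190 to 51700 CPM in LKO, lowest in LKO 3. Neutrophil markers (3 of 6 tested, all above 0) summed to 0.453 to 1.64 CPM in control and 1.48 to 6.36 CPM in LKO, with Ly6g, Mpo and Retnlg at 0 in some libraries. They were highest in LKO 4. The 5 endothelial markers, all above 0, had their lowest sums of each group in control 4 (279 CPM) and LKO 3 (285 CPM), with the other libraries at 280 to 445 CPM. The 5 Kupffer cell markers, 3 above 0, summed to 212 CPM in control 4, inside the control range of 177 to 250 CPM, and to 230 CPM in LKO 3 against 349 CPM in LKO 4. Above 0 were also 5 of 6 T and NK cell, 3 of 4 B cell and 6 of 6 stellate cell markers tested. The sums of these lists, too, were highest of each group in control 4 and LKO 3. They were 6.16 and 7.46 CPM for T and NK cells, 5.35 and 7.01 CPM for B cells and 383 and 378 CPM for stellate cells. None of these markers passed at an adjusted p under 0.05 (edgeR), and their part in the differences given for Cdkn1a, Phlda3, Tnfrsf10b, Gadd45b, Casp1 and Mlkl was not tested. Sesn1 and Bbc3 stood at 8.61 and 1.64 CPM in control 4, within the range of the other controls. The part of cell types in their differences was not tested either.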

How the data were processed

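Raw whole-number counts per gene, named by NCBI Gene number, were deposited by the authors for each library. Of tools and builds, bcl2fastq 2.20, DESeq2 and GRCm39 are listed by the submitters' processing notes. Aligner, counter, strand setting and annotation were not given in the sources used here. Per the labels' protocols, ribosomal RNA was removed and stranded single-end libraries were sequenced on 1 lane. Symbols, promoter windows and overlapping genes came from RefSeq tables of GRCm38.p6 (25275 of 27179 genes named), and exon lengths from GENCODE on GRCm38. All 10 columns were used.

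Tests used edgeR 4.0.16 in R 4.3.3 (filterByExpr, TMM, legacy quasi-likelihood F test, two-sided, genotype only), with Benjamini-Hochberg adjustment over 15226 genes and a threshold of 0.05. CPM are TMM-scaled, and standard errors come from the fold change and F. DESeq2 1.42.0 and limma 3.58.1 voom were alternatives, beside other scalings and filters, the replicate number and the title code as covariates, and leaving out libraries.

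The members and lists were chosen with earlier results of these data known. Values per library were given for genes without overlap between groups and the 2 genes of smallest p in each role (all in roles of 3 or fewer), and up to 3 genes were named per wider list. No 2 libraries of a group agreed within sampling noise. The fit was tested on simulated data, and figures were drawn with matplotlib 3.10.9.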

Additional observations from a re-analysis of the deposited data

Results flagged for a closer look

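In 7 of the 60 sets of 5 libraries (30 genes, 2 groups) the library at one end lay far from its neighbours by Dixon's ratio. For normally distributed values chance flags about 1 in 20 sets, or 3. The ratio was taken on CPM without logs, and the 60 sets share the same 10 libraries, so that number is a rough guide only. In 5 of these control 4 was high among the controls: Cdkn1a at 14.8 CPM, Phlda3 at 2.90 CPM, Pmaip1 at 2.03 CPM, Gadd45b at 2.19 CPM and Bcl2l11 at 8.54 CPM. The other two concerned Ripk3, where control 5 was high at 1.47 CPM and LKO 5 was low at 0.673 CPM.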

How the results depend on the processing

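The number of genes called was 10, and of the 30 members 0. The gene count was 31 with no filter, 20 with at least 1 CPM in 5 libraries, 2 with the replicate block and 0 with the title code as a covariate. It was 1140 (6 members) with DESeq2, 2460 (7 members) with limma voom and 2363 (9 members) without both control 4 and LKO 3. With 1 library left out it ran from 2 to 2296 and the members called from 0 to 10, the upper end without control 4 in both. No member was called without any 1 of the other 9 libraries. Scaling to total counts moved the median log2 fold change to 0.57 for the BCL2 family, 0.59 for its proapoptotic and 0.29 for its antiapoptotic members and 0.43 for caspases, necroptosis and pyroptosis, with all genes at 0.24. With the title code as a covariate the proapoptotic median was 0.21 and the antiapoptotic one -0.25. The cause of the moves was not tested.

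Directions turned as follows. With total counts the log2 fold change was 0.12 for Gadd45a, 0.069 for Bid, 0.24 for Bcl2l1, 0.16 for Casp8 and 0.074 for Gsdmd. With the title code it was -0.022 for Btg2, -0.25 for Mcl1, 0.061 for Casp8, -0.13 for Ripk1 and -0.093 for Birc3. With DESeq2 it was -0.0013 for Mdm2, and with limma voom -0.0051 for Mdm2, -0.015 for Aen, -0.15 for Trp53inp1 and -0.00074 for Mcl1. With at least 1 CPM in 5 libraries Bcl2l1 stood at 0.0034, and without control 4 and LKO 3 Aen at -0.0030 and Trp53inp1 at -0.085. With 1 library left out the ranges were -0.054 to 0.067 for Mdm2, -0.030 to 0.11 for Aen, -0.12 to 0.32 for Zmat3, -0.18 to 0.28 for Trp53inp1, -0.40 to 0.20 for Gadd45a and -0.10 to 0.051 for Bcl2l1. DESeq2 size factors in edgeR, no filter, the option without legacy dispersion and the replicate block changed no member's direction or call.

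The replicate numbers were shared by both groups, but same-numbered libraries did not deviate together (correlations of deviations from -0.399 to 0.419, and 1 of 5 pairs correlated best within its own number), so the replicate block is an alternative only. Depth limits Tnfrsf10b, Phlda3 and Gadd45b most, with as few as 9, 17 and 17 counts in a library.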
